A study of Mus musculus with 6 samples.

Results

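The exon junction complex is a group of proteins that the spliceosome deposits on mRNA a short distance upstream of each exon-exon junction. Its core consists of the RNA clamp EIF4A3, the heterodimer of MAGOH (or its paralog MAGOHB) with RBM8A (Y14), and CASC3 (MLN51). RNPS1 and ACIN1 join as peripheral factors, in complexes with SAP18 that act in splicing. The complex marks spliced mRNA for export and translation, and a complex left downstream of a stop codon directs the transcript to nonsense-mediated decay, a surveillance pathway that degrades mRNAs with premature stop codons. The genes described are Eif4a3, Magoh, Magohb, Rbm8a, Casc3, Rnps1 and Acin1. They were taken by name from the deposited tables, and all 7 were present among 13932 genes, with 94 of 151811 splice junctions.

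The cells were common myeloid progenitors, sorted as donor-derived c-Kit+ and CD34+ cells that were negative for Lineage markers, Sca-1 and Fcgamma. The transplanted marrow carried U2AF1(S34F)/rtTA in one group (S34F) and U2AF1(WT)/rtTA in the other (WT), so both groups expressed an inducible U2AF1 transgene and both received doxycycline chow for 5 days, more than 6 weeks after transplantation. U2AF1 recognises the AG that closes an intron, as part of the splicing machinery, and the S34F substitution is known to change its preference for the base just before this AG. There were 3 libraries per genotype, each from 4 to 5 pooled mice, and neither the promoter of rtTA nor the age of the mice is stated in the sample labels. The comparison asked which of these genes differed in level or in splicing after a short induction of the mutant.

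Gene counts summed to 46827909 to 51862032 per S34F library and to 54727541 to 94562984 per WT library. U2af1 was measured at 126 ± 9.13 CPM, the count per TMM-scaled library size, in S34F and 119 ± 12.6 CPM in WT (SD, n = 3), a count that does not separate the transgene from the endogenous gene and so checks no label. The markers of the sort, Kit and Cd34, were at 149 to 192 and 695 to 868 CPM in S34F and at 92.4 to 209 and 796 to 904 CPM in WT, and Ly6a (Sca-1) was at 1.08 to 1.84 CPM. Fcgr3, which encodes an Fcgamma receptor, was at 33.4 to 78.1 CPM in S34F and 38.8 to 111 CPM in WT. The sort was for cells negative for Fcgamma. The libraries of replicate 1 stood apart in both genotypes: Ddx3y, a Y-linked gene, had 5714 and 5580 counts there and 0 in the other 4 libraries. Xist had 1 and 5 counts in replicate 1 and 67264 to 128694 in the other 4 libraries. In this bulk RNA, fewer cells of a type and less RNA per cell cannot be told apart.

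The splice sites of the main Rnps1, Magohb and Acin1 events described further on, and of the tandem acceptors, are shown first. The alternative 5′ end of Rnps1 (chromosome 17, plus strand, mm9) joins a first exon, which ends at 24551679, to 3 competing acceptors. They open a 122 nt noncoding exon at 24551986, a 181 nt exon with 71 coding bases at 24554983 and a 156 nt coding exon at 24555402. The last 20 bases of each intron and the first 3 of the exon read as follows, with the AG and the base before it in capitals.
Rnps1 122 nt exon, chr17:24551966-24551988: ttctcttgttttcttgtCAGgct
Rnps1 181 nt exon, chr17:24554963-24554985: tccttttatcttgttacTAGgct
Rnps1 156 nt exon, chr17:24555382-24555404: cattctatcttatcatgCAGggc
The acceptor of the 181 nt exon has T before the AG, and the flanking acceptors have C.

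In Magohb (chromosome 6, minus strand), a 200 nt exon at 131241759 to 131241958 appears only in annotated transcripts of the nonsense-mediated decay class. It opens at an acceptor with A before the AG, whereas the exon that usually follows the first exon opens after C.
Magohb 200 nt exon, chr6:131241956-131241978: ctgtttttggtcccaacAAGcta
Magohb 59 nt exon, chr6:131239463-131239485: ctttctttctctccacaCAGgga
In Acin1 (chromosome 14, minus strand), an internal first exon that ends at 55272372 can be joined to a 104 nt or a 65 nt form of the same exon, or can skip it.
Acin1 104 nt form, chr14:55272152-55272174: ttttgttttaattttttTAGgat
Acin1 65 nt form, chr14:55272113-55272135: tgttatttcttccattcCAGaaa
Acin1 skipped to, chr14:55270693-55270715: aatctcttccatcctgtCAGtga
A further pair of genes used tandem acceptors 3 nt apart, printed here with both AGs and the bases before them in capitals.
Acin1 tandem acceptor, chr14:55265665-55265693: gtcctattttttggggaCAGCAGctacca
Rbm8a tandem acceptor, chr3:96434380-96434408: tctggtatgaattctttTAGAAGaggggt
Over all 73 acceptors of the 7 genes, 67.1% had C before the AG, 24.7% T, 8.22% A and 0 had G. Among 129881 acceptors in the deposited table these shares were 62.7%, 30.6%, 6.32% and 0.343%.

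At the gene level, none of the 7 genes passed the test of S34F against WT. The members called at an adjusted p below 0.05 by edgeR's quasi-likelihood test were 0 of 7, and the background was 0.0% of 13905 genes. DESeq2 also called 0 of 7, with 0.689% of all genes called. A single member, Rbm8a, had an unadjusted edgeR p below 0.05, beside 9.1% of all genes, and its level was higher in S34F, beside 4.39% of genes with such a p on that side. The log2 fold change was above 0 in 5 members and below 0 in 2, with a median of 0.16, whereas the median over all genes was -0.01 and 49.1% of genes were above 0. The CPM of the genotypes did not overlap for 2 members, Eif4a3 and Magohb, beside 15.6% of all genes.

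Eif4a3, the RNA helicase that clamps the complex onto mRNA, was at 195, 211 and 192 CPM in the 3 S34F libraries and at 187, 161 and 188 CPM in the WT libraries. Every S34F library was above every WT library, but the gap between the nearest libraries was small. The log2 fold change was 0.16 ± 0.10 (SE), with an edgeR adjusted p of 0.619, and 0.090 without WT replicate 2. In mm9 the gene spans chr11:119149677-119161403 on the minus strand. The others are at chr4:107552360-107560029 (Magoh, plus), chr6:131234406-131243262 (Magohb, minus), chr3:96433851-96437702 (Rbm8a, plus), chr11:98666219-98695128 (Casc3, plus), chr17:24551620-24562840 (Rnps1, plus) and chr14:55260998-55305768 (Acin1, minus).

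Magohb, the less abundant partner of RBM8A, had 24.3, 20.9 and 19.5 CPM in S34F and 17.3, 18.8 and 18.5 CPM in WT. The S34F libraries were again all higher, with S34F replicate 1 the highest. The log2 fold change was 0.24 ± 0.13 (SE, edgeR adjusted p = 0.573), and 0.15 without S34F replicate 1. Some markers of other cells did not overlap between genotypes in the same libraries. The 5 dendritic cell and macrophage markers, all measured and none at 0, summed to 34.5 to 61.9 CPM in S34F and 143 to 309 CPM in WT, and of the 5 only Cd74 overlapped. The 4 erythroid markers summed to 6.77 to 8.25 against 10.4 to 13.9 CPM, although Hba-a1 and Hbb-b1 overlapped. Of the 2 megakaryocyte markers, Itga2b was at 69.8 to 100.4 against 113 to 150.2 CPM, and Pf4 overlapped at 3.68 to 4.38 against 2.24 to 5.40 CPM. The sums of the 4 granulocyte markers, at 250.03 to 339 against 239.5 to 352 CPM, and of the measured T cell, B cell and natural killer markers, all below 4 CPM, overlapped between genotypes. The part of these markers in the results for Eif4a3 and Magohb was not tested.

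Magoh itself, the major paralog, had 101, 107 and 91.6 CPM in S34F and 82.5, 112 and 106 CPM in WT. The groups overlapped throughout, with a log2 fold change of -0.01 ± 0.13 (SE, edgeR adjusted p = 0.990). The paralogs could be compared because their coding sequences, of 441 nt in Magoh and 447 nt in Magohb, were 79.9% identical with a longest identical run of 17 nt, while each read had 100 bases. The most similar 60 bases, at positions 98 to 157 of the Magoh and 104 to 163 of the Magohb coding sequence, differed at 7 positions, given in capitals.
Magoh: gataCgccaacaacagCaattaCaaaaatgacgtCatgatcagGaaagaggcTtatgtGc
Magohb: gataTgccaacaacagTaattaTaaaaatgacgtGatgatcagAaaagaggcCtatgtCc
Magohb made up 9.73%, 8.07% and 8.69% of the summed paralog level per kilobase in S34F and 8.58%, 7.03% and 7.21% in WT. These shares overlapped between genotypes, at 8.83 ± 0.839% against 7.61 ± 0.849% (SD, n = 3; two-sided exact permutation p = 0.2, where 0.1 is the smallest possible). The shares depend on the annotated exon lengths used, 770 nt for Magoh and 1720 nt for Magohb.

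Rbm8a, which encodes the Y14 subunit, differed most, at 61.0, 44.7 and 56.2 CPM in S34F and 49.9, 21.3 and 24.3 CPM in WT. The WT libraries did not form a group: replicate 1 lay within the S34F range, and replicates 2 and 3 were at less than any S34F library. The log2 fold change was 0.76 ± 0.31 (SE), with an adjusted p of 0.548 by edgeR and of 0.306 by DESeq2. When single libraries were left out, it ran from 0.54 without WT replicate 2 to 1.24 without WT replicate 1. The unadjusted edgeR p was 0.0428 with all libraries and 0.125 without WT replicate 2. The authors' deposited table gives the gene a log2 fold change of 0.47 with an adjusted p of 0.316. The authors' gene ratios have a shrunken range, so 0.47 and 0.76 are not like measures.

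Casc3, the fourth core subunit, had the same shape, at 54.6, 38.7 and 51.9 CPM in S34F and 54.8, 18.2 and 24.2 CPM in WT. WT replicate 1 was as high as the highest S34F library, and WT replicates 2 and 3 were below all of them. The log2 fold change was 0.58 ± 0.38 (SE, edgeR adjusted p = 0.626), and 0.29 without WT replicate 2. Casc3 overlaps Msl1 on its own strand, where the strand of a read cannot separate them, and Gm12359 on the other. No source used here states whether counting used the strand. The counts of Casc3 may thus be affected by reads of these genes.

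Without WT replicate 1, both genes were called: Rbm8a at a log2 fold change of 1.24 ± 0.15 (SE, edgeR adjusted p = 0.0101) and Casc3 at 1.19 ± 0.19 (SE, adjusted p = 0.0161). These were 2 members called, beside 8.42% of 13921 genes in that fit, 1172 genes. Both were higher in S34F, beside 935 genes (6.72%) called on that side. The other 5 members were not called there, with adjusted p from 0.229 for Acin1 to 0.962 for Rnps1. In that fit only S34F keeps a library with Ddx3y counts. The trait that sets replicate 1 apart is therefore not balanced between the genotypes in it. The ratio of the highest to the lowest library was 2.87 for Rbm8a and 3.02 for Casc3, against a median of 1.5 over all genes, and 12.1% and 11.0% of genes had a larger ratio. Kit, a marker of the sort, had a similar order of libraries, at 192, 149 and 175 CPM in S34F and 209, 92.4 and 125 CPM in WT. Of the 2 GMP markers, Mpo was at 6538 CPM in WT replicate 1, at 3043 and 3427 CPM in WT replicates 2 and 3 and at 4322 to 5948 CPM in S34F. Fcgr3 ran the other way within WT, at 38.8 CPM in replicate 1 and 111 and 61.2 CPM in replicates 2 and 3, with 33.4 to 78.1 CPM in S34F. The part of these markers in the Rbm8a and Casc3 results was not tested. In the other members the ratio was 1.24 for Rnps1 to 1.40 for Magohb.

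Rnps1, a peripheral factor that acts in splicing and in decay, was at 158, 147 and 136 CPM in S34F and 169, 143 and 150 CPM in WT. Acin1, the scaffold that brings RNPS1 and SAP18 together, was at 303, 261 and 273 CPM in S34F and 304, 237 and 246 CPM in WT. Both genes overlapped between genotypes, with log2 fold changes of -0.06 ± 0.11 and 0.09 ± 0.12 (SE; edgeR adjusted p of 0.837 and 0.809). When single libraries were left out, the value for Acin1 ran from 0.018 without WT replicate 2 to 0.21 without WT replicate 1, and that for Rnps1 was 0.0096 without WT replicate 1. Acin1 shares its region with 3 genes on the other strand.

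**Figure D1:**
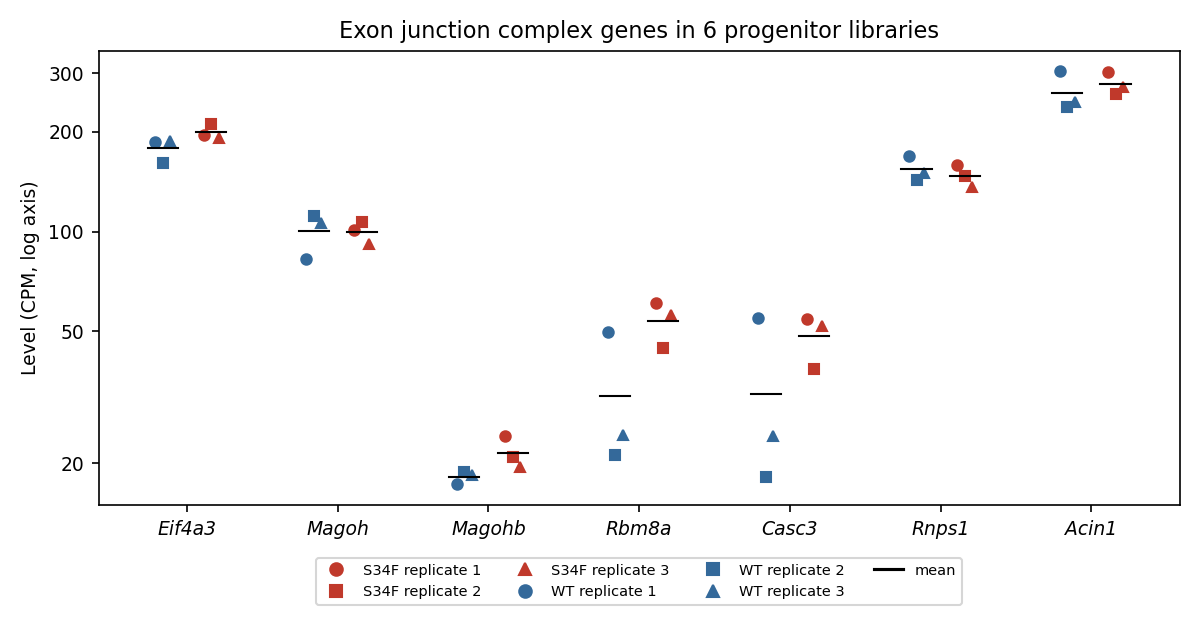
Level of each gene in each library, in CPM on a log axis, with S34F in red, WT in blue, a symbol for each replicate and a line at the mean. Rbm8a and Casc3 show WT replicate 1 among the S34F libraries and WT replicates 2 and 3 below them, while Magoh, Rnps1 and Acin1 overlap.

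**Figure D2:**
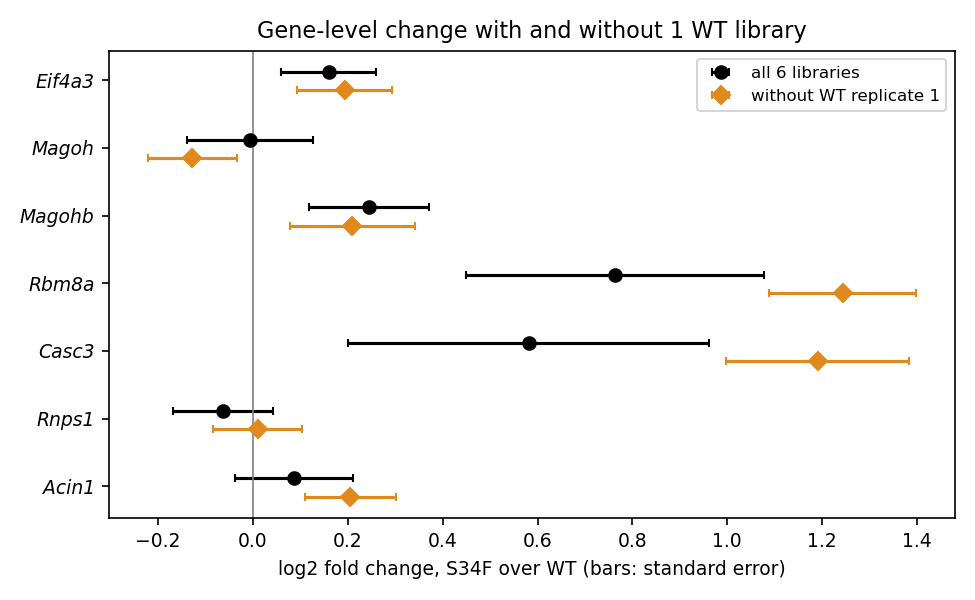
log2 fold change of S34F over WT for each gene, with standard errors, from all 6 libraries (black circles) and without WT replicate 1 (orange diamonds). Rbm8a moves from 0.76 to 1.24 and Casc3 from 0.58 to 1.19, and the other 5 genes stay between -0.13 and 0.24.

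The subunits were not measured at equal levels. Per kilobase of annotated exon, the mean level over the 6 libraries was 130 CPM per kb for Magoh, 89.1 for Eif4a3, 78.5 for Rnps1, 31.3 for Acin1, 16.5 for Rbm8a, 11.6 for Magohb and 9.39 for Casc3. The ranges over libraries separated Magoh (107 to 145) from Eif4a3 (75.9 to 99.4), and Rnps1 (70.9 to 88.1) from Acin1 (27.5 to 35.2). Eif4a3 and Rnps1 overlapped, as did Rbm8a (8.17 to 23.4), Magohb (10.1 to 14.1) and Casc3 (4.22 to 12.7). The order depends on the length used: the authors' deposited FPKM ranged from 37.3 to 59.5 for Acin1 in the 5 libraries with a value, and from 38.8 to 60.3 for Rnps1.

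The profiles over libraries also differed between subunits. Rbm8a and Casc3 had a Pearson r of 0.979 in log2 CPM over the 6 libraries, with 1.52% of genes closer to Rbm8a. Gmpr and Atxn10 were among the genes closest to Rbm8a, each with an r of 0.999. Atxn10 was at 108, 77.9 and 102 CPM in S34F and at 91.7, 35.3 and 43.1 CPM in WT, again with WT replicate 1 among the S34F libraries. For Eif4a3 the closest were Zcchc17, Rpl30-ps10 and Adat3, with r of 0.985, 0.982 and 0.979, of which Rpl30-ps10 was below 1 CPM in every library. Eif4a3 and Magoh had an r of -0.20. The 6 points of each correlation include both genotypes and come from libraries of different depth.

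The reads along Rbm8a were also spread unevenly. The last junction of the gene had 2.17, 3.07 and 2.02 times the reads of the first in S34F and 2.28, 3.31 and 4.21 times in WT. The 3 highest ratios were in the libraries with the 3 lowest Rbm8a levels. Over 6510 genes the median ratio ranged from 1.25 to 1.37 between libraries. The log2 change of the ratio in S34F against WT was -0.41 for Rbm8a, with 5.36% of genes lower, and -0.41 for Casc3, with 5.42% lower, but Casc3 had only 36 to 97 reads at its first junction. These ratios have no test. Whether RNA integrity had a part in them was not tested.

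Of the 94 junctions, 32 were alternative, meaning that a junction with more reads shared their donor or acceptor, and 12 were not annotated with both ends in a known pairing. Acin1 held 19 alternative junctions of 36 and Rnps1 5 of 13. Alternative junctions took 12.1%, 11.2% and 11.2% of the Acin1 junction reads in S34F and 11.3%, 11.5% and 11.0% in WT. In Rnps1 they took 10.9%, 10.3% and 11.2% in S34F and 9.67%, 11.5% and 12.4% in WT. Neither gene passed the test of its total alternative share, with log2 odds ratios of S34F over WT of 0.03 ± 0.11 and -0.05 ± 0.15 (SE; edgeR adjusted p of 0.962 and 0.958).

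The share was lower in the other genes. Rbm8a had 1.34% to 1.74% in S34F and 1.11% to 1.99% in WT, and Eif4a3, Magoh and Casc3 stayed below 1%, which left them out of the test. Magohb had 2.40%, 0.794% and 2.43% in S34F and 3.40%, 3.70% and 2.87% in WT, with every S34F library lower (log2 odds ratio -0.88 ± 0.40 SE; edgeR adjusted p = 0.625). Without S34F replicate 2 the log2 odds ratio was -0.46. It was the single one of the 4 genes tested whose genotypes did not overlap, beside 15.1% of 5762 genes. None of the 4 had an adjusted p below 0.05 by edgeR (background 0.0%) or by DESeq2 (background 0.442%), and at an unadjusted p below 0.05 edgeR had 0 of the 4 (background 7.98%) and DESeq2 had 1.

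Splice site choice was then tested site by site. Among 30 acceptors of 6 members, 0 were called by edgeR (background 0.0% of 29709) and 0 by DESeq2 (background 1.27%), and 1 had an unadjusted edgeR p below 0.05 (background 7.5%). Among 24 donors of 4 members, 0 were called (background 0.00997% of 30084 by edgeR and 0.804% by DESeq2), and 1 had an unadjusted edgeR p below 0.05 (background 6.41%). Among 6 cassette exons of 3 members, 0 were called (background 0.0275% of 7260 by edgeR and 2.14% by DESeq2), and 0 had an unadjusted p below 0.05 by either tool (background 10.8% by edgeR). Shares did not overlap between genotypes at 7 of the 30 acceptors (background 17.0%), 6 of the 24 donors (background 14.8%) and 3 of the 6 cassette exons (background 19.7%). Acceptors of the same donor share reads, so these counts are not of independent events. Both results with an unadjusted edgeR p below 0.05 were in Rnps1. DESeq2 had an unadjusted p below 0.05 at 3 of the 30 acceptors, all in Rnps1, beside 3473 of 29709. For donors DESeq2 had 1 of the 24, also in Rnps1, beside 2835 of 30084.

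The T acceptor of the 181 nt Rnps1 exon had a lower share in each S34F library than in any WT library. From the first exon it took 11.7%, 9.77% and 8.71% of the reads in S34F (75, 51 and 48 reads) and 14.2%, 17.6% and 15.7% in WT (94, 130 and 217 reads). The highest S34F library was replicate 1 and the lowest WT library was also replicate 1. The mean share was 10.1 ± 1.52% against 15.9 ± 1.73% (SD, n = 3), a difference of -5.79 percentage points and a log2 odds ratio of -0.75 ± 0.30 (SE; edgeR adjusted p = 0.663), so the difference did not pass the correction over all acceptors. The 122 nt exon, with its C acceptor, took 14.8%, 14.8% and 15.8% in S34F and 13.6%, 15.9% and 13.8% in WT, which overlapped. The 156 nt exon took the remainder, 73.5%, 75.5% and 75.5% in S34F and 72.2%, 66.5% and 70.4% in WT.

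The same T acceptor competed with the 156 nt exon from a different donor, that of the 122 nt exon at 24552107. There it took 48.4%, 50.5% and 50% in S34F and 53.7%, 67.1% and 65.1% in WT. The S34F libraries lay close together and below all WT libraries, and WT replicate 1 was the WT library nearest to them. The difference was -12.4 percentage points, with a log2 odds ratio of -0.74 ± 0.38 (SE; edgeR adjusted p = 0.699).

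Seen from the acceptor of the 156 nt exon, reads from the 122 nt exon made up 17.6%, 17.7% and 17.3% in S34F and 13.6%, 12.1% and 11.2% in WT. The groups were apart, at 17.5 ± 0.232% against 12.3 ± 1.24% (SD, n = 3). The log2 odds ratio was 0.60 ± 0.24 (SE; edgeR adjusted p = 0.766). In the authors' deposited table, this junction had a DEXSeq log2 fold change of 0.57 and a DEXSeq adjusted p of 0.0468. That value is the change of the junction within its gene, not of the donor share at this acceptor. The values 0.57 and 0.60 are therefore not like measures, and their p-values come from different tests. This junction was the single member junction with a deposited adjusted p below 0.05, beside 0.34% of 150691 junctions. A deposited unadjusted p below 0.05 was held by 9 member junctions, beside 7.36%. The junction joins 2 known splice sites in a pairing that the deposited table marks as not annotated.

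As a cassette exon between the first exon and the 156 nt exon, the 181 nt exon was included at 30.6%, 29.6% and 29.7% in S34F and 32.0%, 39.4% and 33.9% in WT. Inclusion was lower in all S34F libraries, with a mean difference of -5.14 percentage points (log2 odds ratio -0.33 ± 0.22 SE; edgeR adjusted p = 0.623), and the log2 odds ratio was -0.20 without WT replicate 2. When only its exit to the 156 nt exon was counted, inclusion of the 122 nt exon went the other way. Each S34F library (22.2%, 22.0% and 22.2%) was above the WT libraries (18.8%, 20.6% and 17.5%), with an adjusted p of 0.683 by edgeR. That count left out its exit to the 181 nt exon, which had 1307 reads over all libraries against 959 for the counted exit. Entry from the first exon overlapped between genotypes, as given above. The difference is thus not separate from the choice of acceptor after the 122 nt exon, already described. The total level of Rnps1 overlapped between genotypes, as given above.

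**Figure D3:**
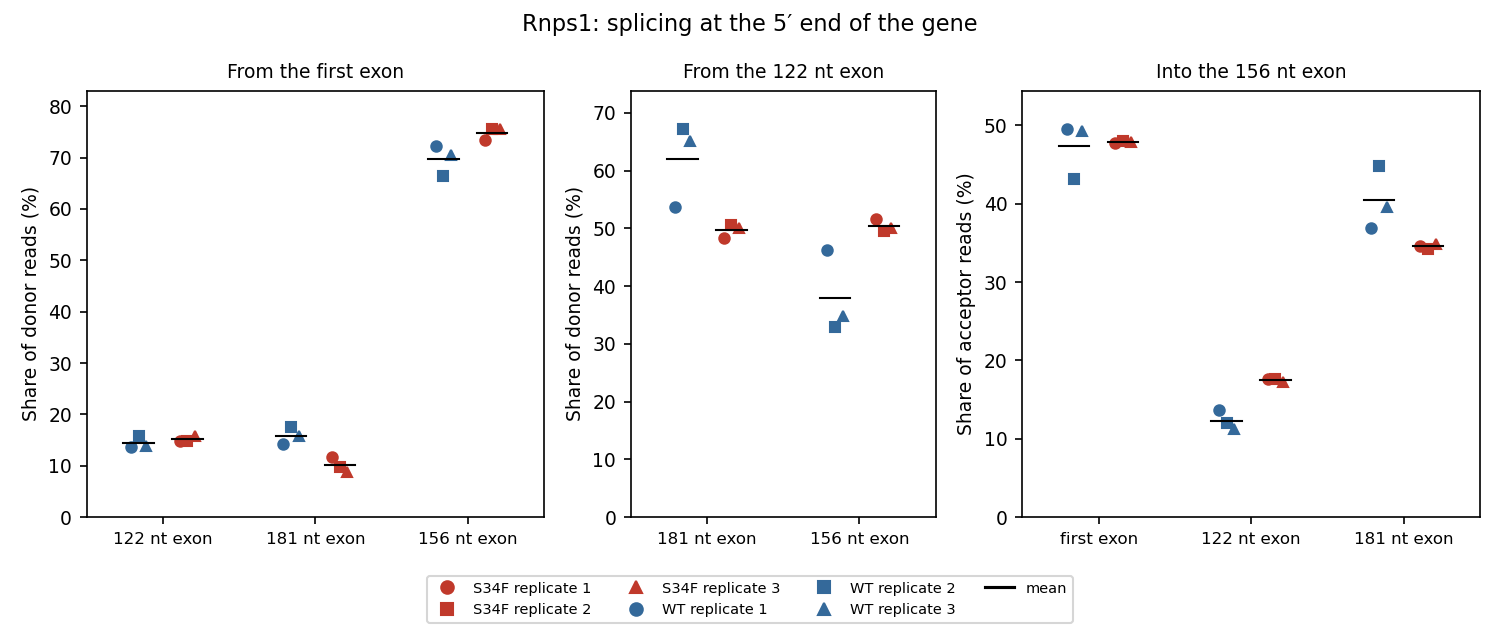
Share of reads in each library at the 5′ end of Rnps1, with S34F in red, WT in blue and a line at the mean: the acceptors joined to the first exon (left), those joined to the 122 nt exon (middle) and the donors joined to the 156 nt exon (right). The acceptor of the 181 nt exon, with T before the AG, is lower in all 3 S34F libraries in the left and middle plots. In the right plot, all 3 S34F libraries lie above WT for the 122 nt exon and below WT for the 181 nt exon.

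The decay-class exon of Magohb had a lower inclusion in each S34F library than in any WT library. Inclusion was 4.13%, 1.78% and 4.67% in S34F and 6.44%, 6.29% and 5.83% in WT, so the groups did not overlap. The mean was 3.53 ± 1.54% against 6.19 ± 0.317% (SD, n = 3), a difference of -2.66 percentage points with a log2 odds ratio of -0.91 ± 0.43 (SE; edgeR adjusted p = 0.496). The reads were few: the junction into the exon had 12, 1 and 13 reads in S34F and 12, 32 and 24 in WT, and the junction out of it 25, 12 and 22 against 33, 37 and 55. S34F replicate 2, with a single read into the exon, was the lowest on both counts, and without it the log2 odds ratio was -0.52. The exon carries 50 coding bases in its annotated transcripts, and the level of Magohb was higher in all S34F libraries, by a margin that did not pass the test.

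Acin1 had the most varied splicing of the 7 genes. From its internal first exon, the 104 nt form with the T acceptor took 22.2%, 14.5% and 19.4% of reads in S34F and 28.0%, 26.0% and 26.5% in WT, which did not overlap (log2 odds ratio -0.69 ± 0.40 SE; edgeR adjusted p = 0.731). The 65 nt form with the C acceptor took 34.1%, 31.7% and 22.5% in S34F and 33.1%, 30.1% and 35.8% in WT, which overlapped. Skipping of the exon took 43.7%, 53.8% and 58.1% in S34F and 39.0%, 43.9% and 37.7% in WT. S34F replicate 1 lay within the WT range for skipping, and the other two S34F libraries lay above it.

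The Acin1 event with the most even use of both forms was upstream, where an 89 nt exon at 55285998 can be reached from a 120 nt exon or from the exon before it. The 120 nt exon supplied 41.9%, 62.4% and 52.8% of the reads in S34F and 42.6%, 43.5% and 40.3% in WT. S34F replicate 1 was again like WT, and S34F replicates 2 and 3 were above all WT libraries (log2 odds ratio 0.59 ± 0.40 SE; edgeR adjusted p = 0.873). The log2 odds ratio was 0.30 without S34F replicate 2 and 0.90 without S34F replicate 1. Farther downstream, 2 acceptors that shorten or lengthen an exon by 36 nt were used alike: the upstream one, which gives a 153 nt exon, took 79.8%, 75.6% and 76.5% in S34F and 76.4%, 79.2% and 78.0% in WT.

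The shares of the tandem acceptors overlapped between genotypes. The first AG of the Acin1 pair, which keeps 3 more bases in the mRNA, took 81.2%, 81.5% and 82.2% in S34F and 81.8%, 84.7% and 76.7% in WT (log2 odds ratio 0.03 ± 0.31 SE, edgeR adjusted p = 0.996). The first AG of the Rbm8a pair, TAG followed by AAG, took 84.7%, 88.0% and 87.3% in S34F and 88.1%, 89.7% and 80.7% in WT (log2 odds ratio 0.02 ± 0.53 SE, edgeR adjusted p = 0.998). At the Rbm8a donor the shallowest library had 156 reads.

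**Figure D4:**
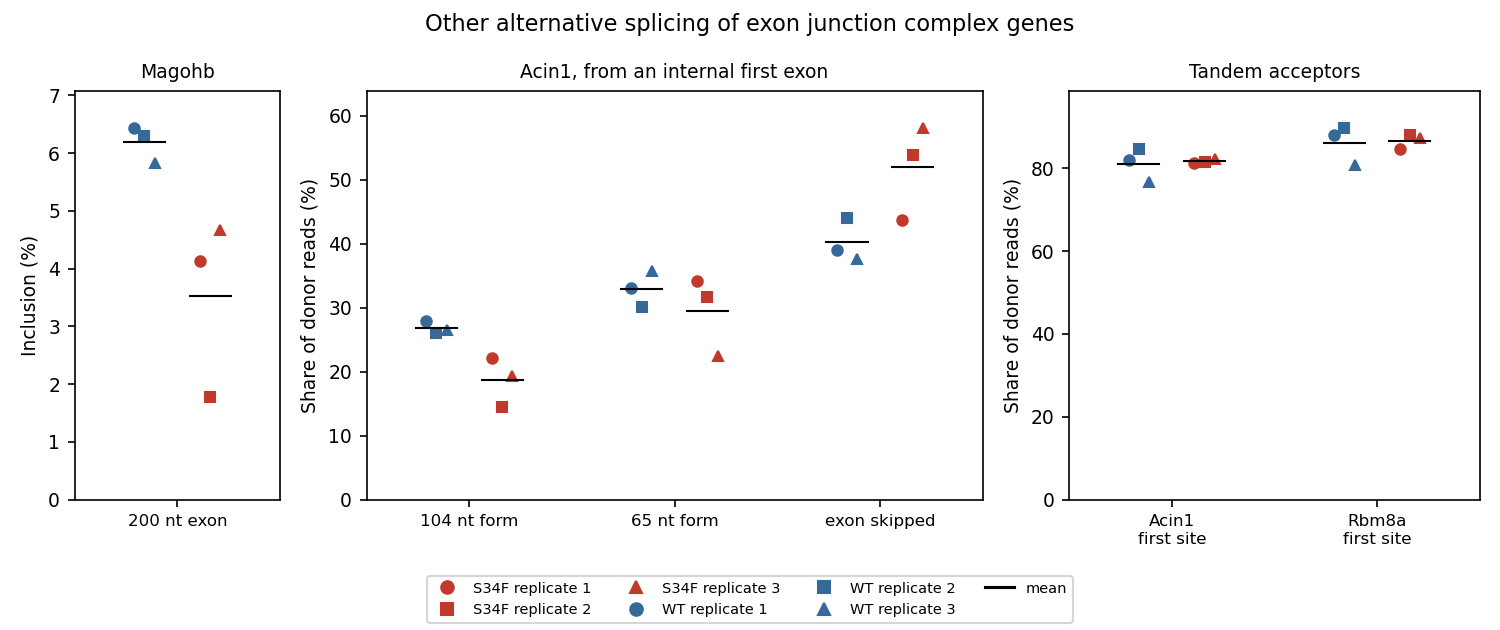
Shares per library for the 200 nt exon of Magohb (inclusion), the exon forms joined to the internal first exon of Acin1 and the first AG of each tandem acceptor, with S34F in red, WT in blue and a line at the mean. The Magohb exon and the 104 nt Acin1 form are lower in all 3 S34F libraries, and the tandem acceptors overlap.

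The core gene with the most reads, Eif4a3, was spliced almost uniformly. Skipping of its 63 nt exon, at 119156787 to 119156849, left 97.6%, 97.9% and 97.6% of the reads on the inclusion acceptor in S34F and 96.7%, 95.9% and 98.1% in WT. The range of WT covered that of S34F (log2 odds ratio 0.40 ± 0.37 SE, edgeR adjusted p = 0.847), with 0.16 without WT replicate 2 and 0.71 without WT replicate 3. In Casc3, an acceptor 10 nt inside a coding exon took 4.22%, 0.0% and 0.637% in S34F and 0.442%, 0.0% and 5.63% in WT, at a donor with as few as 76 reads in a library, which gives no direction. Magoh had a single alternative junction of 5, with 38 reads over all libraries, and no event that could be tested.

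Eif4a3 and Magohb each hold an intron that opens with GC in place of GT, a class that made up 1.05% of all deposited junctions. The 3 exon and 6 intron bases at these donors read as follows, with the GC in capitals.
Eif4a3 last intron, chr11:119149968-119149976: atgGCaagt
Magohb intron after the 59 nt exon, chr6:131239401-131239409: gagGCaagt
The minor junction of Magoh also opens with GC.
Magoh minor donor, chr4:107552503-107552511: aagGCaagt
The GC intron of Eif4a3 had 1376, 1446 and 1285 reads in S34F and 1335, 1581 and 2459 in WT, and that of Magohb 522, 441 and 401 reads in S34F and 378, 641 and 607 in WT. Both were the main route at their donors, with 100% and 98.9% of the donor's reads.

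The tests of acceptors were also grouped by the base before the AG. Of 6 tested member acceptors with T, 4 had a log2 odds ratio below 0, with a median of -0.41. Over all 9112 tested acceptors with T, 62.8% were below 0, with a median of -0.28. Of 20 with C, 9 were below 0 with a median of 0.03, against 44.4% and 0.10 over all. The 4 with A were split evenly with a median of 0.01, against a median of 0.26 over all. The member acceptors come from few donors and partly share reads.

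The partners of the complex were described from a list of 27 genes, of which 25 were measured. The list held 17 assembly, export and SR protein genes and 10 genes of nonsense-mediated decay, 8 of them measured. No partner was called by edgeR or by DESeq2 over all genes, and 6 had an unadjusted edgeR p below 0.05, of which 5 were higher in S34F, beside 9.1% and 4.39% of all genes. Of the 17 assembly and export genes, 11 had a log2 fold change above 0 and 6 below, with a median of 0.08. All 8 measured decay genes had one above 0, with a median of 0.24, beside a median of -0.01 and 49.1% above 0 over all genes. Upf3a and Upf3b, at first listed with the assembly genes, were counted with the decay genes. Their log2 fold changes of 0.45 and 0.55 were the largest of the 8. They were the 2 decay genes with an unadjusted edgeR p below 0.05. The CPM of the genotypes did not overlap for 1 of the 8, beside 15.6% of all genes.

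Upf3b, which bridges the exon junction complex to the decay machinery, had the lowest p among the partners. It was at 66.1, 57.4 and 56.2 CPM in S34F and 50.3, 41.6 and 30.8 CPM in WT, without overlap (log2 fold change 0.55 ± 0.18 SE; edgeR adjusted p = 0.538). Srsf7, an SR protein found on exon junction complexes, was at 352, 295 and 290 CPM in S34F and 287, 202 and 172 CPM in WT. It too was higher in every S34F library, by a log2 fold change of 0.50 ± 0.19 (SE; edgeR adjusted p = 0.545).

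Thoc5, a subunit of the THO export complex, was the partner with the lowest p on the lower side, at 34.8, 36.0 and 36.5 CPM in S34F and 36.9, 59.0 and 65.7 CPM in WT. WT replicate 1 lay next to the S34F libraries, and the other two WT libraries were higher (log2 fold change -0.59 ± 0.20 SE; edgeR adjusted p = 0.538). Sap18, the shared subunit of the complexes that hold RNPS1, was next on that side, at 72.2, 69.9 and 67.0 CPM in S34F and 65.0, 81.1 and 87.9 CPM in WT (log2 fold change -0.16 ± 0.13 SE; edgeR adjusted p = 0.661). Without WT replicate 1, 9 of the 25 partners were called, 8 of them higher in S34F, beside the background of 8.42% given above. The Ddx3y imbalance of that fit applies here too.

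**Figure D5:**
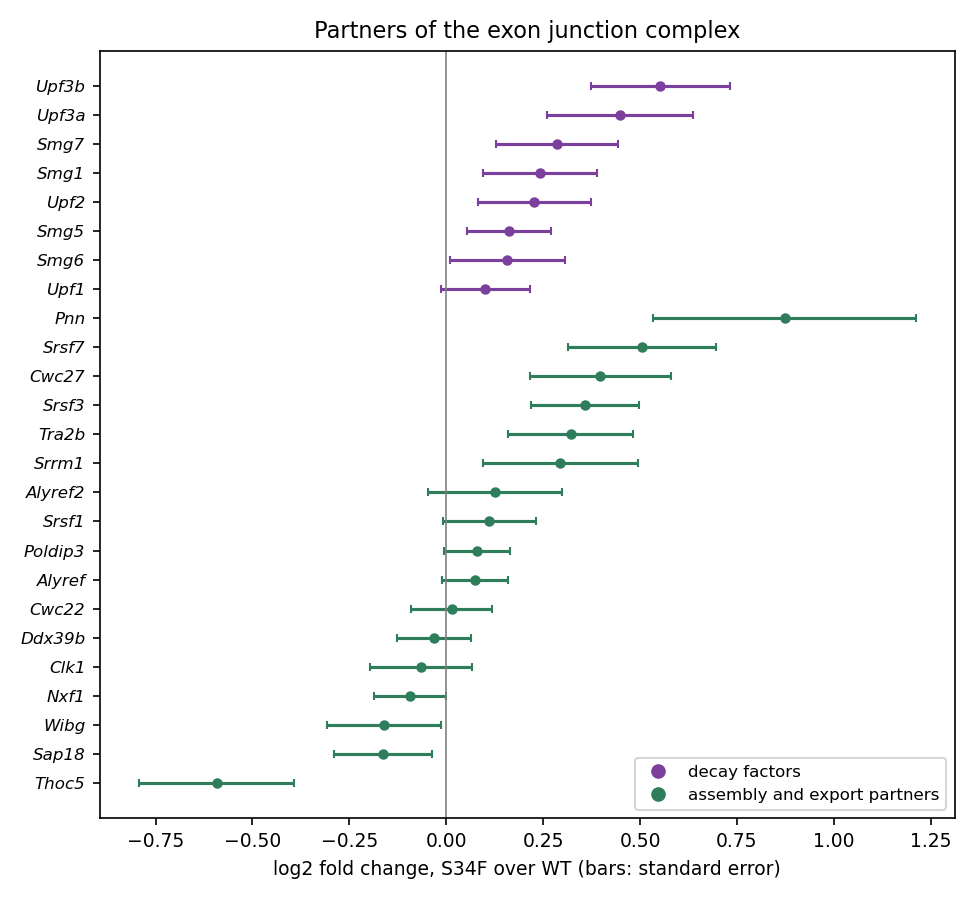
log2 fold change of S34F over WT, with standard errors, for the 25 measured partners of the exon junction complex, with decay factors in purple and assembly and export partners in green. All 8 decay factors lie above 0, with Upf3b at 0.55, and Thoc5 lies lowest at -0.59.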

How the data were processed

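The authors deposited raw read counts per gene and per splice junction for 6 libraries, with no normalization. Per the file headers, the gene table also holds a ratio of S34F to WT, that ratio as log2 and p-values, and the junction table holds DEXSeq p-values and log2 fold changes, 2 model quantities (each a score), a mean count (signal) and FPKM per gene. The authors' FPKM was used only to show a range of levels, since its scale differed between libraries and Acin1 had no value in 1 library. The submitters' processing notes name TopHat2 2.0.8, Bowtie2 2.1.0, Cufflinks 2.1.1, HTSeq 0.5.4p1 and DESeq2 1.6.1. No label or header states the annotation or strand setting of the counting. Genotypes were read from the sample titles, because the genotype entry reads S34F for all samples.

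Gene counts were tested with edgeR 4.0.16 in R 4.3.3 (TMM scaling, default expression filter, quasi-likelihood test, two-sided, Benjamini-Hochberg adjustment over all genes, threshold 0.05), and CPM are counts per TMM-scaled library size. Junction events entered as 2 counts per library, the form and its alternatives, with terms for library and form and a test of the interaction with genotype. Each library had to hold 20 reads of an event, with 1% of reads in each form (2% for cassette exons of 10 to 1000 nt). The share of alternative junctions was tested in genes with at least 1%. DESeq2 1.42.0 was the alternative tool. The edgeR fits of gene counts and of junction events were tested on simulated counts, and the other steps were not. After a shift of 1 base inward, 99.985% of GT-AG junctions had these bases in the mm9 genome, so printed positions are exon bases, counted from 1. Exon lengths come from GENCODE. Profile correlations used log2(CPM + 0.5).

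Replicates are pools of mice, and p-values measure the spread between these pools. Same-numbered libraries had correlations of their deviations of 0.21, 0.27 and 0.02, and libraries of unlike number -0.29 to 0.08. The first 2 values lay above that range and the third within it. The numbers were not taken as pairs in the main tests, although a pairing is not excluded. Fits with a replicate block are given below. All 7 members and the events with an unadjusted p below 0.05 are named. Of the partner list, the 2 of lowest p in each direction are named. So is the event of each member with the largest minor share of its reads. For a cassette exon this share sets the summed reads of the inclusion junctions against those of the skipping junction. Further events in Rnps1, Magohb and Acin1 and the tandem and GC sites were added after their values were seen. The members and lists were chosen with earlier results of these data known. A gene that the rule for similar profiles selects is not reported here.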

Additional observations from a re-analysis of the deposited data

How the results depend on the processing

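No edgeR fit with all 6 libraries called a member. RLE scaling, no filter on low counts, a minimum of 50 reads and the use of junctions with at least 1% of reads only gave counts of calls within 1.5 times the main ones. DESeq2 called 96 genes, 23 alternative shares, 376 acceptors, 242 donors and 98 cassette exons, of which 0 were of members. Under the replicate block, calls by edgeR were 5 genes, 0 donors and 0 cassette exons, where without it the calls were 0, 3 and 2. With DESeq2 and the replicate block together, an alternative chosen after seeing the data, 444 genes (3.69%), 26 alternative shares, 101 acceptors, 59 donors and 62 cassette exons were called. Only there, and without WT replicate 1, were 2 members called, Rbm8a and Casc3. In that block fit their log2 fold changes were 0.86 and 0.73, with DESeq2 adjusted p of 0.00159 and 0.0347. The block changed no other call of a member. The cause of these shifts was not tested.

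Leaving out each library in turn gave 0 to 1172 genes, 0 to 2 members, 0 to 2 alternative shares, 0 acceptors, 0 to 5 donors and 0 cassette exons, with 1172 only without WT replicate 1. Of 201 alternative values for single members and events, 180 kept their direction and side of the threshold, 4 passed it and 17 changed sign, in Magoh, Rnps1, Acin1, Rbm8a and Casc3. Depth limited the Casc3 acceptor, with 76 reads at its donor in the shallowest library, and the Magohb exon. Magoh was at 0.0029 with the replicate block and 0.0054 with DESeq2 and the block. When single libraries were left out, log2 values ranged from -0.13 to 0.079 for the level of Magoh and from -0.12 to 0.0096 for that of Rnps1. They ranged from -0.0077 to 0.055 for the alternative share of Acin1, from -0.16 to 0.039 for that of Rnps1 and from -0.13 to 0.25 for that of Rbm8a. For the Casc3 minor acceptor the range was -2.05 to 2.07, and for the first AG of Rbm8a -0.29 to 0.23. The Rnps1 T acceptor kept a log2 odds ratio of -0.88 to -0.65 and the Magohb exon one of -1.18 to -0.52.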
